A study of Mus musculus with 19 samples.

Results

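The genes described here are 9 components of insulin and insulin-like growth factor (IGF) signaling and of its FOXO transcription factors in mouse small intestinal crypts. They are the receptors Insr and Igf1r, the adaptors Irs1 and Irs2, the kinases Akt1 and Akt2, and the transcription factors Foxo1, Foxo3 and Foxo4. The genes were chosen by name and matched by symbol. The rule used no measured value, but earlier results of these data were known when it was made. All 9 were found among the 55487 genes listed in the files, and all 9 passed the filter on low counts that left 17875 genes for testing. The study asked how the gut peptide neurotensin (NT, encoded by Nts) affects crypts in fed and fasted mice. NT+/+ mice and NT-/- mice, which lack neurotensin, were either fed ad libitum (AL, standard chow) or fasted for 48 hours with water. All mice were C57BL/6, and both sexes were used. The study's methods describe adult mice with littermate controls of matched sex and age, and the labels give neither the age nor the litter of each mouse. The groups held 5 NT+/+ AL, 4 NT-/- AL, 5 NT+/+ Fast and 5 NT-/- Fast mice. Crypts were taken from the proximal and middle parts of the small intestine by EDTA treatment, and their ribosomal RNA-depleted total RNA was sequenced. The study describes its NT+/+ and NT-/- mice as carrying Lgr5-EGFP, a knock-in at the Lgr5 locus (Lgr5-EGFP-IRES-CreERT2), whereas its animal methods list lines with and without this allele and the sample labels do not name it.

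Insulin and the IGFs bind receptor tyrosine kinases, which phosphorylate the IRS adaptor proteins. These recruit phosphatidylinositol 3-kinase (PI3K), whose lipid product activates AKT. AKT phosphorylates FOXO proteins and keeps them out of the nucleus, so that in fasting, when insulin falls, FOXO proteins are able to enter the nucleus and act on genes of gluconeogenesis, stress resistance and growth arrest. Much of this control acts on proteins and their phosphorylation, which mRNA levels do not measure.

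The 19 libraries held 9059457 to 35068711 assigned counts per mouse, with a median of 18541819. Nts was lower in NT-/- crypts, at 0.314 ± 0.290 CPM (counts scaled to a common library size, SD, n = 4) against 7.82 ± 0.773 CPM (n = 5) in AL mice and at 0.433 ± 0.230 CPM (n = 5) against 5.42 ± 0.267 CPM (n = 5) in fasted mice. The mouse titled NT+/+ Fast-5 carries an NT-/- genotype label. It was kept with its title, and its Nts level was 5.43 CPM. Epithelial markers summed to 4896 to 6470 CPM per mouse. Marker sums of fibroblasts, smooth muscle and endothelium lay between 0.384 and 6.43 CPM, and those of leukocytes between 53.6 and 169 CPM. Markers of villus enterocytes moved with fasting: 7 of 9 rose in NT+/+ mice and 9 of 9 rose in NT-/- mice. Their summed level was 4885 to 10549 CPM in NT+/+ AL, 10055 to 20468 CPM in NT+/+ Fast, 7611 to 11698 CPM in NT-/- AL and 17481 to 25066 CPM in NT-/- Fast mice. Goblet cell markers moved in part, with 2 of 5 lower in fasted NT+/+ and 3 of 5 lower in fasted NT-/- mice. Tff3 and Fcgbp were not called (log2 fold changes 0.13 and 0.17 in NT+/+, 0.03 and 0.16 in NT-/- mice). Chga, 1 of 4 tested enteroendocrine markers, was higher in both genotypes. Of all tested genes 11.2% rose and 10.4% fell with fasting in NT+/+ mice, and 12.5% rose and 12.6% fell in NT-/- mice. Of 5 stem cell markers, Olfm4 was lower in both genotypes and Smoc2 in NT-/- mice, while Ascl2 and Lgr5 stood at log2 fold changes of 0.63 and 0.29 in NT+/+ mice (adjusted p = 0.114 and 0.287). In NT-/- mice Ascl2 and Lgr5 stood at 0.12 and -0.02 (adjusted p = 0.823 and 0.955 in edgeR). Slc12a2 stood at -0.19 in NT+/+ and -0.23 in NT-/- mice and was not called. The part of these cell type markers in the fasting results below was not tested. In bulk crypt RNA, fewer cells of a type and less RNA per cell cannot be told apart.

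To compare levels between genes, CPM values were divided by effective transcript length in kilobases. In NT+/+ AL mice Akt1, which encodes the more widely expressed of the AKT kinases, was the most abundant of the 9 genes, at 69.0 ± 11.4 CPM per kb (SD, n = 5). Insr followed at 25.9 ± 3.12, Akt2 at 22.4 ± 0.868, Foxo3 at 12.0 ± 0.770 and Foxo4 at 11.0 ± 1.11 CPM per kb. Irs2 stood at 7.63 ± 1.71, Igf1r at 6.87 ± 0.476 and Foxo1 at 6.03 ± 0.349 CPM per kb. Irs1 was the least abundant by a wide margin, at 0.310 ± 0.0430 CPM per kb. The ranges of these mice overlapped between the neighbours Foxo3 and Foxo4, Irs2 and Igf1r, and Igf1r and Foxo1, and did not overlap between the other neighbours in the order. For Insr and Akt2 they all but touched, with the lowest Insr at 23.5079 (mouse 3) and the highest Akt2 at 23.5075 CPM per kb (mouse 1). Over all 19 mice, Akt1 was above Insr, Insr above Akt2 and Akt2 above Foxo3 in 19 of 19, whereas Foxo4 was above Irs2 in 14 of 19.

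**Figure D1:**
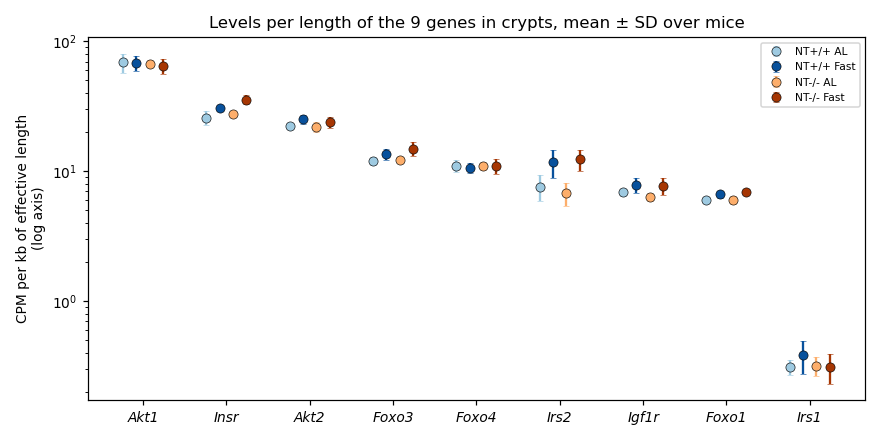
Level per length of each gene in CPM per kilobase of effective length on a log axis. Points are group means and bars the SD over the mice of NT+/+ AL, NT+/+ Fast, NT-/- AL and NT-/- Fast. Akt1 stands at the top at 69.0 CPM per kb in NT+/+ AL mice and Irs1 at the bottom at 0.310 CPM per kb.

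Insr, the insulin receptor, was higher in fasted than in fed crypts of both genotypes. Its gene lies on chromosome 8 (GRCm38, 3122061 to 3279617, minus strand). In NT+/+ AL mice 1 to 5 it measured 131, 167, 125, 135 and 133 CPM, and in NT+/+ Fast mice 157, 166, 169, 174 and 153 CPM. All 5 fasted mice were above 4 of the 5 fed mice, and 2 of the 5 were also above the highest, NT+/+ AL mouse 2, so the groups overlapped through that mouse. In NT-/- AL mice it measured 149, 155, 141 and 141 CPM, and in NT-/- Fast mice 186, 190, 210.5, 169 and 194 CPM. Every fasted NT-/- mouse was above every fed one. The log2 fold change for fasting was 0.24 (SE 0.077, 95% interval 0.08 to 0.41, adjusted p = 0.0269) in NT+/+ mice, a 1.19-fold difference, and 0.38 (SE 0.082, 0.20 to 0.55, adjusted p = 0.00221) in NT-/- mice, a 1.30-fold difference. The call in NT+/+ mice was lost without any of NT+/+ AL mice 1, 3, 4 or 5 (adjusted p = 0.0658, 0.0745, 0.0563 and 0.0621) or NT+/+ Fast mice 2, 3 or 4 (adjusted p = 0.0636, 0.0532 and 0.0691), and the call in NT-/- mice held without each of the 19 mice.

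Igf1r encodes the receptor for IGF1 and IGF2, on chromosome 7 (67952827 to 68233668, plus strand). It measured 58.4, 66.5, 64.8, 58.9 and 67.9 CPM in NT+/+ AL mice and 85.1, 76.8, 65.0, 61.8 and 71.2 CPM in NT+/+ Fast mice. In NT-/- AL mice it measured 62.7, 54.2, 60.7 and 55.9 CPM, and in NT-/- Fast mice 86.6, 56.5, 73.6, 68.4 and 69.1 CPM. In NT+/+ mice 3 of 5 fasted mice exceeded all fed mice, in NT-/- mice 4 of 5, and the groups overlapped in both genotypes. The fasting difference did not pass the threshold in either genotype, with a log2 fold change of 0.18 (SE 0.099, -0.02 to 0.39, adjusted p = 0.197) in NT+/+ and 0.28 (SE 0.11, 0.06 to 0.50, adjusted p = 0.0553) in NT-/- mice. The NT-/- value lay near the threshold, and 6 of 10 alternative fits called it, both fits with a replicate block among them (adjusted p = 0.0144 to 0.0455 over the 6). Without NT-/- Fast mouse 2, the lowest of its group, the NT-/- value was 0.35 (adjusted p = 0.0145), and without NT+/+ Fast mouse 1 or 4 its adjusted p was 0.0410 or 0.0481.

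Irs2, an adaptor that couples both receptors to PI3K, showed the largest fasting difference among the 9 genes in each genotype. It lies on chromosome 8 (10984681 to 11008458, minus strand). In NT+/+ AL mice it measured 53.0, 57.8, 50.1, 29.8 and 46.8 CPM, and in NT+/+ Fast mice 86.0, 64.2, 97.0, 64.9 and 53.7 CPM. Of the fasted NT+/+ mice 4 of 5 were above every fed mouse, and the remaining one, mouse 5, lay inside the fed range. In NT-/- AL mice Irs2 measured 45.8, 49.7, 30.0 and 42.8 CPM and in NT-/- Fast mice 89.3, 83.1, 89.0, 60.8 and 61.5 CPM, and these groups did not overlap. The log2 fold change was 0.62 (SE 0.18, 0.24 to 1.01, adjusted p = 0.0197) in NT+/+ mice, 1.54-fold, and 0.87 (SE 0.20, 0.45 to 1.28, adjusted p = 0.00323) in NT-/- mice, 1.83-fold. The NT+/+ call was lost without NT+/+ AL mouse 4, the lowest fed mouse (0.49, adjusted p = 0.0502), or NT+/+ Fast mouse 3, the highest fasted mouse (0.50, adjusted p = 0.0648). The NT-/- call held without each of the 19 mice.

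Irs1, the other IRS adaptor among the 9 genes, is on chromosome 1 (82233101 to 82291416, minus strand). It was covered by only 26 to 94 counts per mouse. It measured 2.78, 2.18, 2.84, 3.20 and 3.05 CPM in NT+/+ AL mice and 4.98, 3.89, 2.83, 3.08 and 2.58 CPM in NT+/+ Fast mice. In NT-/- AL mice it measured 2.77, 2.60, 3.61 and 2.56 CPM, and in NT-/- Fast mice 3.79, 2.95, 2.83, 2.66 and 1.80 CPM. Fed and fasted mice overlapped in both genotypes. The log2 fold change was 0.30 (SE 0.21, -0.13 to 0.73, adjusted p = 0.320) in NT+/+ and -0.04 (SE 0.22, -0.50 to 0.42, adjusted p = 0.923) in NT-/- mice, and the direction in NT-/- mice turned without NT-/- AL mouse 3 (0.08) or NT-/- Fast mouse 5 (0.09). Per length, the ratio of Irs2 to Irs1 was 25.5 ± 9.05 in NT+/+ AL, 32.0 ± 10.4 in NT+/+ Fast, 22.0 ± 6.88 in NT-/- AL and 40.7 ± 7.18 in NT-/- Fast mice (SD, n = 5, 5, 4 and 5). Both genes overlap antisense genes, Gm9747 at Irs1 with 17 counts over all mice against 1046 and 9530052E02Rik at Irs2 with 37 against 20745, and the strand setting of the counting is not stated. At this depth of Irs1 a change of the size seen for Irs2 in NT-/- mice lay outside the 95% intervals of Irs1 in both genotypes, whereas the size seen for Irs2 in NT+/+ mice lay inside the interval of Irs1 in NT+/+ mice.

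The start regions of both IRS genes are shown because Irs2 carried the largest fasting difference of the 9 genes, and because both contain 2 short elements known from work on insulin-regulated genes. The sequences are the 250 bases before the start in RefSeq on GRCm38.p6, 5′ to 3′ on the gene's strand, at chr1:82291440-82291689 for Irs1 and chr8:11008930-11009179 for Irs2, both on the minus strand. These RefSeq starts lie upstream of the gene starts in the positions given above, 82291416 for Irs1 and 11008458 for Irs2. The bases directly before those other starts were not searched. Capitals mark CACGTG, an E-box, and TGTTTTG, an insulin response element.
Irs1: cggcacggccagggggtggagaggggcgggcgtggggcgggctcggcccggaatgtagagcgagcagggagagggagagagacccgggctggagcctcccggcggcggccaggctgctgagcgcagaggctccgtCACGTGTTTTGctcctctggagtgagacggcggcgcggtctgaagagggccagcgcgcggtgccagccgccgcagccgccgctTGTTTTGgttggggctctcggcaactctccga
Irs2: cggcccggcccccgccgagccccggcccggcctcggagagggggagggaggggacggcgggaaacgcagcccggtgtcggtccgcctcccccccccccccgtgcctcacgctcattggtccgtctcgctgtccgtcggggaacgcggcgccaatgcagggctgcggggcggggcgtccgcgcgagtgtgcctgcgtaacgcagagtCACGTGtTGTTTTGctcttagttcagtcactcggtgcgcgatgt
In Irs2 the E-box spans bases 207 to 212 of the printed run and the insulin response element bases 214 to 220. In Irs1 the E-box spans bases 136 to 141 and overlaps an insulin response element at bases 140 to 146, and a second such element lies at bases 219 to 225. Both strands were searched. Among all 32851 RefSeq start regions of the same length, 6.02% held this E-box, 5.56% held this insulin response element and 0.295% held both. Of the 9 genes, 7 had an entry, in 11 start regions, while Insr and Foxo4 had none and were not searched. Among these 11 regions the E-box and the insulin response element were found in those of Irs1 and Irs2 only. GTAAACA, a core forkhead element, was present in 3.17% of all start regions and in 1 of these 11, at Akt1. TGACGTCA, the cyclic AMP response element, was present in 1.55% of all and in 0 of these 11. The motifs were picked from knowledge of these promoters, and a match is a description of letters and not of binding.

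The AKT kinases were not called in any comparison. Akt1 (chromosome 12, 112653821 to 112674884, minus strand) measured 180, 122, 151, 128 and 132 CPM in NT+/+ AL mice and 154, 125, 164, 122 and 138 CPM in NT+/+ Fast mice. It measured 150, 144, 136 and 129 CPM in NT-/- AL and 162, 119, 126, 124 and 132 CPM in NT-/- Fast mice, and in both genotypes the ranges overlapped. Its log2 fold change for fasting was -0.02 (SE 0.11, -0.25 to 0.21, adjusted p = 0.928) in NT+/+ and -0.07 (SE 0.12, -0.32 to 0.17, adjusted p = 0.705) in NT-/- mice. The sign in NT+/+ mice turned without NT+/+ AL mouse 1 or 3 or NT+/+ Fast mouse 2 or 4 (0.08, 0.0031, 0.03 and 0.03).

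Akt2, the AKT kinase best known for its part in insulin-dependent glucose uptake, lies on chromosome 7 (27591552 to 27640826, plus strand). It measured 51.9, 47.5, 49.8, 47.6 and 50.6 CPM in NT+/+ AL mice and 54.3, 52.3, 62.4, 55.6 and 51.9 CPM in NT+/+ Fast mice. In NT-/- AL mice it measured 52.5, 47.2, 50.8 and 42.9 CPM, and in NT-/- Fast mice 60.7, 48.3, 51.2, 49.2 and 53.9 CPM. Although 4 of 5 fasted NT+/+ mice were above every fed NT+/+ mouse, the differences were small and did not pass the threshold, with 0.16 (SE 0.073, 0.01 to 0.31, adjusted p = 0.124) in NT+/+ and 0.13 (SE 0.078, -0.04 to 0.29, adjusted p = 0.260) in NT-/- mice. Per length, Akt1 exceeded Akt2 by 3.07 ± 0.406 times in NT+/+ AL, 2.72 ± 0.268 in NT+/+ Fast, 3.09 ± 0.172 in NT-/- AL and 2.68 ± 0.102 times in NT-/- Fast mice (SD).

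Among the FOXO transcription factors, Foxo1 and Foxo3 were higher in fasted NT-/- crypts and Foxo4 was not. Foxo1 (chromosome 3, 52268336 to 52353221, plus strand), the FOXO factor best known for activating gluconeogenic genes in liver, measured 52.4, 53.7, 48.9, 55.0 and 48.2 CPM in NT+/+ AL and 57.2, 61.5, 59.7, 52.2 and 55.5 CPM in NT+/+ Fast mice. It measured 52.7, 46.9, 51.7 and 55.2 CPM in NT-/- AL and 58.4, 58.1, 64.1, 56.9 and 61.2 CPM in NT-/- Fast mice. All 5 fasted NT-/- mice were above all 4 fed ones, and 4 of 5 fasted NT+/+ mice were above all 5 fed ones. The log2 fold change was 0.15 (SE 0.062, 0.02 to 0.28, adjusted p = 0.0992) in NT+/+ and 0.21 (SE 0.066, 0.07 to 0.35, adjusted p = 0.0247) in NT-/- mice, the latter a 1.16-fold difference. The NT-/- call was lost without NT-/- AL mouse 2 or 3 (adjusted p = 0.102 and 0.0553) or NT-/- Fast mouse 3 (adjusted p = 0.0651).

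Foxo3 (chromosome 10, 42181841 to 42276755, minus strand), a FOXO factor tied to stress resistance and autophagy genes, measured 68.3, 78.8, 76.7, 70.9 and 78.5 CPM in NT+/+ AL and 95.5, 84.6, 84.8, 82.6 and 72.3 CPM in NT+/+ Fast mice. It measured 80.0, 73.5, 73.4 and 77.6 CPM in NT-/- AL and 107, 94.3, 82.9, 80.0 and 98.5 CPM in NT-/- Fast mice. In each genotype 4 of 5 fasted mice were above every fed mouse. The log2 fold change was 0.17 (SE 0.082, -0.0004 to 0.34, adjusted p = 0.148) in NT+/+ and 0.28 (SE 0.087, 0.10 to 0.46, adjusted p = 0.0222) in NT-/- mice, 1.22-fold in the latter. The NT-/- call was lost without NT-/- AL mouse 2 or 3 (adjusted p = 0.0639 and 0.0650) or NT-/- Fast mouse 1 or 5 (adjusted p = 0.0599 and 0.0504).

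Foxo4 (chromosome X, 101254528 to 101260873, plus strand) ranged from 25.9 to 34.1 CPM in NT+/+ AL, from 25 to 31.9 CPM in NT+/+ Fast, from 27.4 to 32.4 CPM in NT-/- AL and from 26.0 to 35.7 CPM in NT-/- Fast mice. These ranges overlapped in every comparison. Its log2 fold change for fasting was -0.06 (SE 0.092, -0.26 to 0.13, adjusted p = 0.677) in NT+/+ and -0.0087 (SE 0.098, -0.21 to 0.20, adjusted p = 0.963) in NT-/- mice, where the sign turned without NT-/- AL mouse 1 or 2 or NT-/- Fast mouse 2 or 3 (0.0379, 0.000787, 0.0306 and 0.0237).

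**Figure D2:**
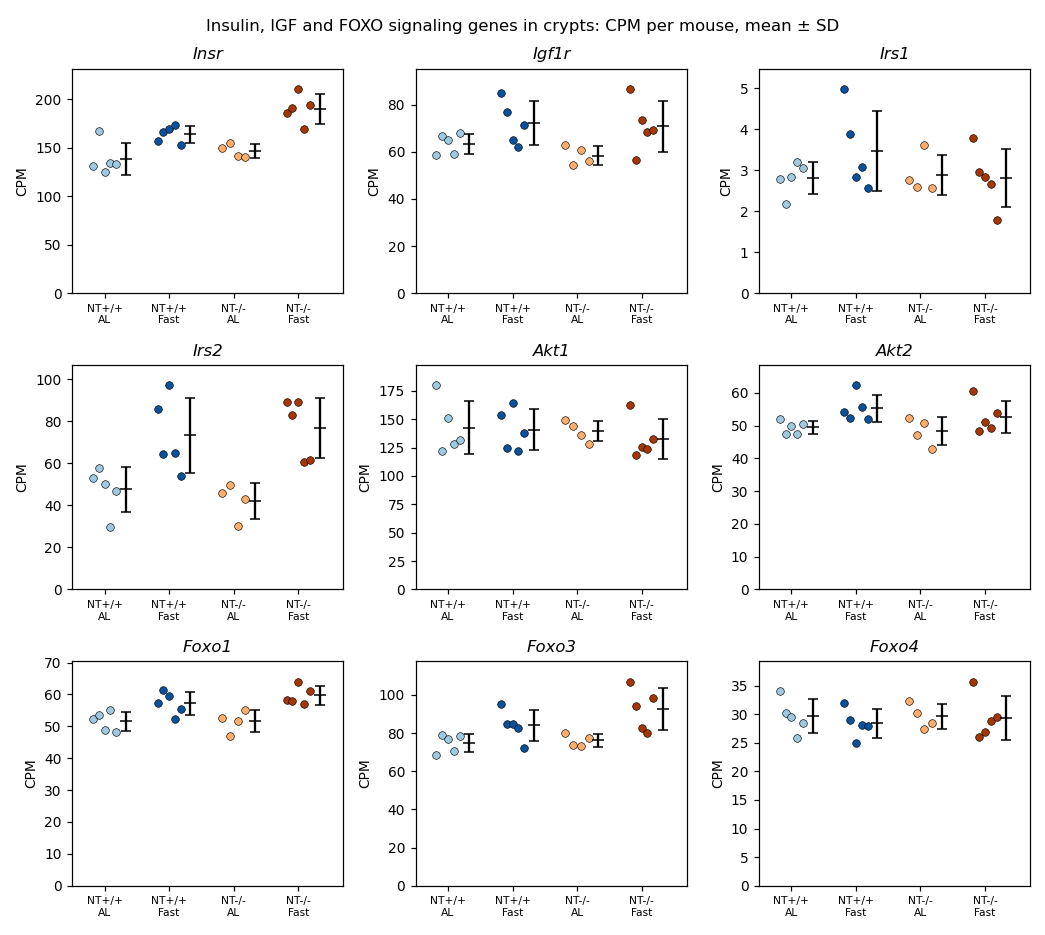
CPM of each of the 9 genes in each mouse (points) with the group mean and SD (black bar), for NT+/+ AL, NT+/+ Fast, NT-/- AL and NT-/- Fast mice, each axis starting at 0. Fasted NT-/- mice lie above all fed NT-/- mice for Insr, Irs2 and Foxo1, while Akt1 and Foxo4 overlap between all groups.

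In NT+/+ mice, fasting thus gave 2 called genes of 9, Insr and Irs2, both higher, beside 21.6% of all tested genes called in either direction, 11.2% higher and 10.4% lower. In NT-/- mice it gave 4 of 9, Insr, Irs2, Foxo1 and Foxo3, all higher, beside 25.2% of all tested genes, 12.5% higher and 12.6% lower. In NT+/+ mice fed and fasted groups were without overlap for 0 of 9 genes, beside 14.6% of all tested genes (7.63% higher in all fasted mice). In NT-/- mice, where 4 rather than 5 fed mice were compared, they were without overlap for 3 of 9, all higher, beside 21.3% of all tested genes (10.5% higher). The median log2 fold change of the 9 genes was 0.17 in NT+/+ and 0.21 in NT-/- mice, and that of all tested genes -0.0089 and -0.02. The share in NT+/+ mice was close to the background.

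**Figure D3:**
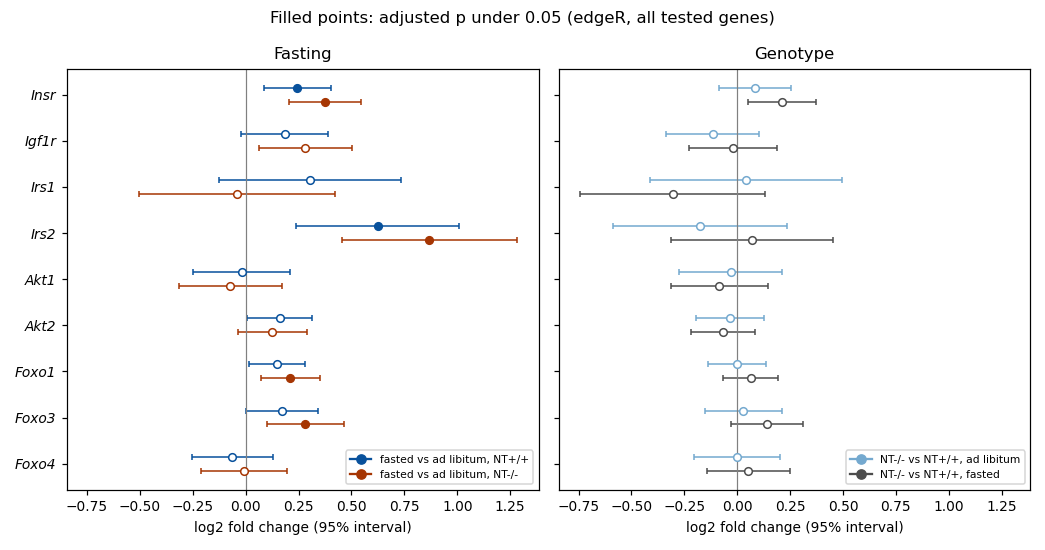
Log2 fold change with its 95% interval for each gene, for fasting within each genotype (left) and for NT-/- over NT+/+ within each diet (right). Filled points passed adjusted p under 0.05 over all tested genes: Insr and Irs2 for fasting in NT+/+ mice, and Insr, Irs2, Foxo1 and Foxo3 for fasting in NT-/- mice. No point is filled in the genotype panel.

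The absence of neurotensin was not accompanied by a called difference in any of the 9 genes. In AL mice 0 of 9 genes were called beside 0.00559% of all tested genes, which was 1 gene, Nts itself. At an unadjusted p under 0.05 there were 0 of 9, beside 1.67% of all, and DESeq2 called 0 of 9, beside 0.0168%. The log2 fold changes of NT-/- over NT+/+ ran from -0.18 for Irs2 (SE 0.20, -0.59 to 0.23) to 0.08 for Insr (SE 0.081, -0.09 to 0.25). In fasted mice 0 of 9 were called, again beside 0.00559% of all tested genes, which was again Nts alone. At an unadjusted p under 0.05 there was 1 of 9, beside 9.14% of all, and DESeq2 called 0 of 9, beside 0.565% (101 genes). The gene at an unadjusted p under 0.05 was Insr, which stood at 190 ± 15.1 CPM in NT-/- Fast against 164 ± 8.61 CPM in NT+/+ Fast mice (SD, n = 5 each), with overlapping ranges, a log2 fold change of 0.21 (SE 0.077, 0.05 to 0.37) and an adjusted p of 0.384. Irs1 had the lowest value at -0.30 (SE 0.21, -0.74 to 0.13, adjusted p = 0.718), and Foxo3 stood at 0.14 (SE 0.082, -0.03 to 0.31, adjusted p = 0.652).

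Whether fasting acted differently in the 2 genotypes was tested with the difference of the fasting effects, NT-/- minus NT+/+. Of the 9 genes 0 were called, beside 0% of all tested genes. At an unadjusted p under 0.05 there were 0 of 9, beside 2.71% of all, and DESeq2 called 0 of 9, beside 0%. The differences ran from -0.34 for Irs1 (SE 0.30, -0.97 to 0.28) to 0.24 for Irs2 (SE 0.27, -0.32 to 0.81), with 0.13 for Insr (SE 0.11, -0.10 to 0.36). Foxo1 and Foxo3 passed the threshold in NT-/- and not in NT+/+ mice, and their differences of 0.06 (SE 0.091, -0.13 to 0.25) and 0.11 (SE 0.12, -0.14 to 0.36) did not show that the genotypes differed.

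For the 2 genes with the smallest p for fasting in NT+/+ mice, Irs2 and Insr, the genes that varied most like them were listed by Pearson correlation of log2 CPM after removal of group means, over 19 mice that share library depth and cell makeup between genes. For Irs2 these were Dedd2 (r = 0.90), Nfil3 (r = 0.89), a basic leucine zipper repressor of the circadian system, and 2210016L21Rik (r = 0.83). For Insr they were Gm26542 (r = 0.83), Gm42372 (r = 0.80) and a gene with no matched symbol (r = 0.78). For both genes these were the highest values among all tested genes, and how high such values run by chance was not tested. Between Insr and Irs2 themselves r was 0.40.

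The other genes of the pathway were taken from a list of 87 genes, of which 78 were tested. In NT+/+ mice fasting raised 18 of them and lowered 9. In NT-/- mice it raised 22 and lowered 8. These were 34.6% and 38.5% of the list, beside 21.6% and 25.2% of all tested genes. Both genotypes shared 15 of the raised and 6 of the lowered genes, and 0 genes were called in opposite directions. The median log2 fold change over the 78 genes was 0.14 in each genotype.

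Among the ligands, Ins1, Ins2 and Igf1 were at or near 0 counts in every mouse, at no more than 2 counts, and Igf2 was the only one tested. Igf2, a fetal growth factor and ligand of Igf1r, rose from 2.65 ± 0.145 to 4.44 ± 0.957 CPM in NT+/+ mice (SD, n = 5 each, log2 fold change 0.74, SE 0.18, adjusted p = 0.00568) and from 3.04 ± 0.482 (n = 4) to 4.68 ± 1.03 CPM (n = 5) in NT-/- mice (0.62, SE 0.19, adjusted p = 0.0208). The NT-/- call was lost without NT-/- AL mouse 2 or NT-/- Fast mouse 1 or 3 (adjusted p = 0.0773, 0.0513 and 0.0578). Igf2 shares exon bases with Gm49394 and with the antisense gene Igf2os, which held 94 and 79 counts over all mice against 1283 for Igf2. Igfbp4, an IGF binding protein, rose in NT+/+ mice from 19.5 ± 4.82 to 30.0 ± 4.36 CPM (0.63, SE 0.16, adjusted p = 0.00772) and measured 19.4 ± 4.47 and 24.6 ± 2.27 CPM in fed and fasted NT-/- mice (0.35, adjusted p = 0.140). The other tested binding proteins, Igfbp3, Igfbp5 and Igfals, stayed at group means of 0.283 to 1.02 CPM and did not pass the threshold. Of the other receptors, Igf2r measured 181 ± 11.6 CPM in NT+/+ AL mice and was not called in either genotype.

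Adaptors next to the IRS proteins moved in both directions, with 3 of 9 higher and 1 of 9 lower in each genotype. Gab1, a docking protein that recruits PI3K, rose from 34 ± 1.37 to 52.2 ± 3.97 CPM in NT+/+ mice (log2 fold change 0.62, SE 0.059, adjusted p = 6.51e-07) and from 37.5 ± 1.54 to 58.9 ± 2.49 CPM in NT-/- mice (0.65, SE 0.063, adjusted p = 7.75e-07). Its relative Gab2 rose by 0.78 and 0.81 (adjusted p = 2.77e-05 and 3.46e-05). Crk, an SH2 and SH3 adaptor, fell by 0.33 and 0.30 (adjusted p = 0.00949 and 0.0233), and its NT-/- call was lost without NT-/- AL mouse 4 or NT-/- Fast mouse 3 (adjusted p = 0.0706 and 0.0658). These adaptors were read against the same background of 21.6% and 25.2% of all genes called.

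Of 6 PI3K subunits tested, 1 rose and 2 fell in NT+/+ mice, and 1 rose and 1 fell in NT-/- mice, beside 21.6% and 25.2% of all genes called. The regulatory subunit gene Pik3r2 rose by 0.32 and 0.31 (adjusted p = 0.00448 and 0.00644). Another regulatory subunit gene, Pik3r3, fell from 12.0 ± 2.16 to 6.70 ± 0.803 CPM in NT+/+ mice (-0.84, SE 0.15, adjusted p = 0.000464) and from 12.6 ± 1.76 to 5.82 ± 1.15 CPM in NT-/- mice (-1.11, SE 0.16, adjusted p = 4.81e-05). The catalytic subunit gene Pik3ca fell by 0.24 in NT+/+ mice at an adjusted p of 0.0477, a call lost without any of NT+/+ AL mice 1, 2 and 5, NT+/+ Fast mice 2, 3 and 4, NT-/- AL mice 1, 2, 3 and 4 and NT-/- Fast mice 4 and 5 (adjusted p = 0.0546 to 0.123), and stood at -0.19 in NT-/- mice (adjusted p = 0.133). Pik3r1, the subunit gene with the most counts, measured 223 ± 13.0 CPM in NT+/+ AL mice and was not called.

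Kinases at the level of AKT included the largest rises outside the FOXO targets. Sgk1, a kinase related to AKT that also phosphorylates FOXO proteins, measured 13.6 ± 5.72 CPM in NT+/+ AL and 111 ± 91.5 CPM in NT+/+ Fast mice, where it ranged from 41.0 to 269 CPM (3.04, SE 0.45, adjusted p = 8.07e-05). Without NT+/+ Fast mouse 3, the highest, the value was 2.41. In NT-/- mice it rose from 15.2 ± 6.41 to 137 ± 46.4 CPM (3.16, SE 0.49, adjusted p = 0.000104). Sgk3 rose by 0.72 and 0.84 (adjusted p = 0.00245 and 0.00103). Pdpk1, which encodes the kinase that activates AKT, measured 119 ± 10.4 CPM in NT+/+ AL mice and was not called in either genotype.

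Among 16 inhibitors, 1 rose and 2 fell in NT+/+ mice, and 2 rose and 3 fell in NT-/- mice, shares of 18.8% and 31.2% called that lay near the 21.6% and 25.2% of all genes. Trib3, a pseudokinase that binds AKT, rose from 1.67 ± 0.699 to 4.36 ± 0.984 CPM in NT+/+ mice (1.37, SE 0.25, adjusted p = 0.000708) and from 1.5 ± 0.381 to 6.35 ± 0.766 CPM in NT-/- mice (2.07, SE 0.28, adjusted p = 2.47e-05). Inppl1, which encodes the lipid phosphatase SHIP2, fell by 0.32 and 0.50 (adjusted p = 0.00467 and 0.000177). Phlpp2, an AKT phosphatase gene, rose in NT-/- mice by 0.64 (adjusted p = 0.0117) and stood at 0.36 in NT+/+ mice (adjusted p = 0.131, and 0.0499 without NT+/+ Fast mouse 5). Grb14, an adaptor that inhibits the insulin receptor, fell by 1.31 in NT-/- mice (adjusted p = 0.00582) from 1.73 ± 0.518 to 0.721 ± 0.346 CPM, and stood at -0.54 in NT+/+ mice (adjusted p = 0.209). Of 8 AKT substrates, Tbc1d4, which encodes a regulator of glucose transporter traffic, was the only one called, lower by 0.57 and 0.75 (adjusted p = 0.00293 and 0.000423). That was 12.5% of these substrates in each genotype, below the 21.6% and 25.2% of all genes called. Foxo6, the remaining FOXO gene, measured 3.07 ± 0.868 CPM in NT+/+ AL mice and was not called.

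FOXO target genes known from other tissues rose more often than they fell. The list rests on that earlier work, and whether FOXO proteins acted on these genes in crypts was not tested. Of 24 tested, 9 rose and 3 fell in NT+/+ mice and 12 rose and 2 fell in NT-/- mice, with 8 higher and 1 lower in both. Of all tested genes 11.2% rose and 10.4% fell in NT+/+ mice, and 12.5% rose and 12.6% fell in NT-/- mice. Their median log2 fold change was 0.39 and 0.49. Pdk4, which encodes a kinase that restrains pyruvate oxidation, rose from 1.76 ± 1.32 to 56.0 ± 30.7 CPM in NT+/+ mice (4.97, SE 0.46, adjusted p = 4.05e-07) and from 0.981 ± 0.397 to 84.2 ± 33.2 CPM in NT-/- mice (6.36, SE 0.54, adjusted p = 1.24e-07). Cat, the catalase gene, rose from 111 ± 21.4 to 278 ± 44.3 CPM (1.32, SE 0.14, adjusted p = 1.59e-06) and from 127 ± 23.6 to 364 ± 14.8 CPM (1.52, SE 0.15, adjusted p = 7.74e-07). In both genotypes the fasted and fed ranges of Pdk4 and Cat did not overlap. Pck1 and G6pc, gluconeogenic enzyme genes that were picked after their values were seen, rose by 3.74 and 1.65 in NT+/+ mice (adjusted p = 0.000620 and 0.00356) and by 4.14 and 2.34 in NT-/- mice (adjusted p = 0.000542 and 0.000343), and fasted NT+/+ mice varied widely in Pck1, at 320 ± 394 CPM. Without NT+/+ Fast mouse 3 the Pck1 value in NT+/+ mice was 2.72.

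Some targets went the other way. Tnfsf10, which encodes the death ligand TRAIL, fell in NT+/+ mice from 98.5 ± 6.91 to 68.1 ± 6.26 CPM (-0.53, SE 0.092, adjusted p = 0.000385) and measured 85.4 ± 13.9 and 82.5 ± 6.17 CPM in fed and fasted NT-/- mice (-0.05, adjusted p = 0.763, with the sign turned without NT-/- AL mouse 1 or 4). Its difference of fasting effects was 0.48 (SE 0.13, unadjusted p = 0.00177), with an adjusted p of 0.999783 in edgeR's test over all genes. Sesn1, a sestrin of the stress response, fell in NT+/+ mice by 0.49 (SE 0.10, adjusted p = 0.00170) and stood at -0.24 in NT-/- mice (adjusted p = 0.115). Without NT-/- Fast mouse 2 the Sesn1 value in NT-/- mice was -0.34 (adjusted p = 0.0122). Txnip, which encodes a thioredoxin-binding protein, measured 244 ± 35.6 CPM in NT+/+ AL mice and was not called. The villus enterocyte marker sums given above rose beside these genes, and their part in the FOXO target results was not tested.

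**Figure D4:**
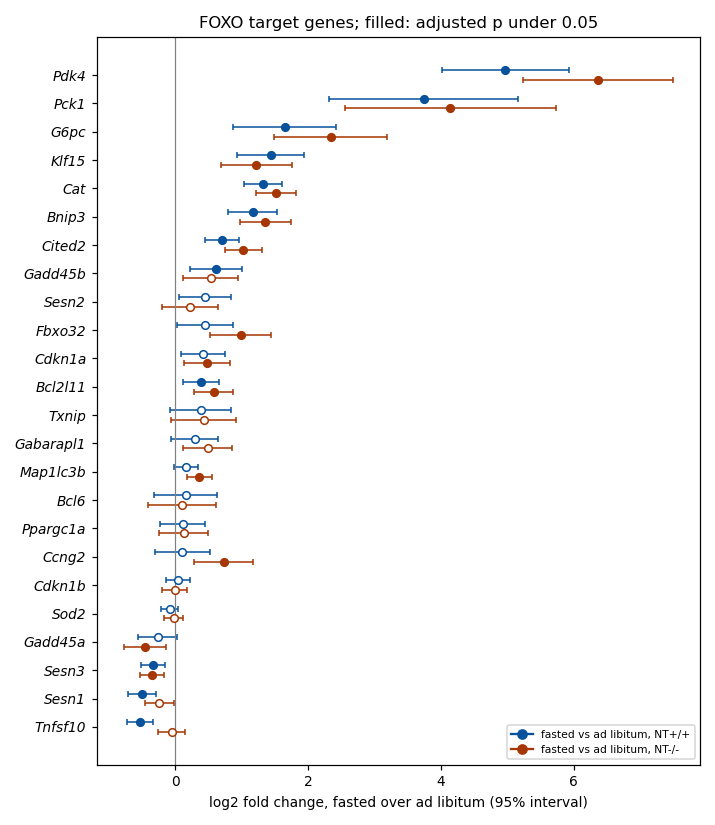
Log2 fold change for fasting with its 95% interval for the 24 tested FOXO target genes, NT+/+ mice in blue and NT-/- mice in brown, filled where the adjusted p was under 0.05. Pdk4 is at the top with 4.97 and 6.36, and 3 genes in NT+/+ and 2 in NT-/- mice fell.

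Of the 78 tested pathway genes edgeR called 0 between genotypes in AL mice, 0 in fasted mice and 0 in the difference of fasting effects, and DESeq2 called 0 in each, beside 3, 101 and 0 of all 17875 genes. At an unadjusted p under 0.05 in edgeR there were 5, 12 and 3 of the 78, beside 1.67%, 9.14% and 2.71% of all genes (299, 1634 and 485). The list thus stood above the share of all genes at this looser threshold, and that excess was not tested. Of the 12 in fasted mice, 8 were among the 24 tested FOXO target genes, whose median log2 fold change of NT-/- over NT+/+ was 0.23. The 2 leading list genes in AL mice were Insrr, the insulin receptor-related receptor gene, with a log2 fold change of NT-/- over NT+/+ of 0.53 (SE 0.22), and Gab1 with 0.14 (SE 0.063), and neither passed the adjusted threshold. In fasted mice they were Sesn1 (0.31, SE 0.10, adjusted p = 0.344) and Tnfsf10 (0.28, SE 0.092, adjusted p = 0.344). Insrr measured 12.5 ± 2.09 and 16.8 ± 2.13 CPM in fed and fasted NT+/+ mice and 18 ± 4.83 and 13.5 ± 4.69 CPM in fed and fasted NT-/- mice, a difference of fasting effects of -0.84 (SE 0.30, adjusted p = 0.999783). Without NT-/- Fast mouse 1 the fall of Insrr with fasting in NT-/- mice passed the threshold (-0.61, adjusted p = 0.0411).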

How the data were processed

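Crypt RNA of 19 mice was measured by ribosomal RNA-depleted, single-end RNA sequencing. The authors trimmed reads with Trimmomatic 0.39 and estimated expected counts per gene with RSEM against Ensembl GRCm38 transcripts, and the deposited files also give an effective length per gene. The strand setting is not given in the sources used here. Expected counts were rounded, and the mean effective length was used only for CPM per kb. Gene symbols and positions came from GENCODE for GRCm38, which matched 55227 of 55487 IDs.

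Groups followed the sample titles. Genes were filtered by edgeR's filterByExpr (17875 kept), scaled by TMM and fitted with edgeR 4.0.16 (R 4.3.3), whose quasi-likelihood F test was applied in 1 model with a term for each of the 4 groups. Genes were called at a Benjamini-Hochberg adjusted p under 0.05 over all tested genes. SE was taken as the absolute log2 fold change over the root of its F statistic. The fit was tested on simulated data. With 9059457 to 35068711 counts per mouse, precision was lowest for Irs1. The study's methods name littermate controls, but neither they nor the labels tie mice to litters or batches, so p-values measure the spread between these mice. Alternatives were another filter, scaling (upper quartile), DESeq2 1.42.0, a replicate block, sex, another group for NT+/+ Fast-5, fits of only the compared groups, leaving out each mouse and, chosen after seeing the data, leaving out the 2 shallowest libraries.

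The 9 genes and all lists were chosen with earlier results of these data known. Named pathway genes were, per role, up to 2 per direction with the smallest p among those called for fasting, the gene with the most counts, the tested ligands and binding proteins, and the 2 with the smallest p in each genotype comparison and in the difference. A gene named by this rule is not reported here.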

Additional observations from a re-analysis of the deposited data

Results flagged for a closer look

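Insr in NT+/+ AL mouse 2 measured 167 CPM, far from the 125 to 135 CPM of the other 4 NT+/+ AL mice. It was the only one of 36 groups of a gene (9 genes in 4 groups) in which the highest or lowest mouse stood apart by Dixon's criterion, and chance alone flags about 1 in 20 groups. Without this mouse the log2 fold change of Insr for fasting in NT+/+ mice was 0.32 (adjusted p = 0.00239 in edgeR).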

How the results depend on the processing

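Fasting calls among the 9 genes in NT+/+ mice fell from 2 to 1 (Irs2) with no filter on low counts and to 1 (Irs2) when only the groups compared were fitted, where Insr had adjusted p = 0.0829 and 0.0567. In NT-/- mice they fell from 4 to 2 (Insr and Irs2) with no filter and to 2 (Insr and Irs2) with sex as a covariate, a fit that drops the NT-/- Fast mouse whose sex is not given. Leaving out each mouse gave 0 to 2 calls in NT+/+ mice (0 without NT+/+ AL mouse 4 or NT+/+ Fast mouse 3) and 2 to 5 in NT-/- mice (2 without NT-/- AL mouse 2 or 3). Grouping NT+/+ Fast-5 as NT-/- left 3 calls in NT-/- mice, without Foxo3 (adjusted p = 0.0742). The stricter filter, upper quartile scaling, DESeq2 and the fit without the 2 shallowest libraries each gave 5, adding Igf1r. Irs2 was called in NT-/- mice under all 10 of these alternatives, as was Insr. The cause of these shifts was not tested. Pathway calls for fasting stayed within 24 to 34 in NT+/+ and 26 to 35 in NT-/- mice, and calls between genotypes and in the difference were 0 throughout.

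Signs near 0 turned in NT-/- mice for fasting. Foxo4 read 0.0107 with DESeq2, 0.0139 with the replicate block by file number, 0.0532 without the 2 shallowest libraries and 0.000509 with only the groups compared. Irs1 read 0.0027 with the replicate block by title number and 0.10 with sex as a covariate. Without the 2 shallowest libraries Tnfsf10 read 0.0261 and Akt1 0.0073. Leaving out each mouse gave -0.0792 to 0.0806 for Akt1 in NT+/+ mice and, in NT-/- mice, -0.188 to 0.0938 for Irs1, -0.0910 to 0.0379 for Foxo4 and -0.140 to 0.0209 for Tnfsf10.

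The replicate numbers were not taken as pairs. Mice of different groups with the same title number had a mean correlation of deviations of 0.18 (19 of 27 pairs over 0.1), and with the same file number 0.23 (24 of 27, lowest 0.067). Mice that share a file number also share their sex where it is given. With the replicate block by title number, 2 genes of 9 were called for fasting in NT+/+ and 5 in NT-/- mice (Igf1r added), and 31 and 35 pathway genes. By file number these were 2, 5, 34 and 34. All genes called rose from 3862 to 5006 and 5484 in NT+/+ and from 4499 to 5657 and 5672 in NT-/- mice.

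Depth limits Irs1 (26 to 94 counts per mouse) most.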
